A study of Mus musculus with 11 samples.

Results

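Transcripts of 10 genes of the olfactory sensory neuron, the nerve cell of the nose that detects odours, were followed through RNA-Seq profiles of sorted astrocytes. The genes were taken from a list of olfactory sensory neuron genes (Omp, S100a5, Stoml3, Gfy, Gng13, Adcy3, Gnal, Ano2, Cnga2 and Cnga4) and make up 10 of the 24421 gene entries of the data. The set was chosen by expression values of these same profiles, in which several of the genes were high in the olfactory bulb, so their difference between the bulb and the other regions is given as a description without a test. Each gene was placed as bulb-only when it had more than 3 reads in all 3 olfactory bulb libraries and no more than 3 in each of the 8 others, and as broad when it had more than 3 reads in all 11.

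The profiles came from C57BL/6 mice aged 16 weeks, with no treatment given in the labels. They comprised 3 samples of the olfactory bulb (OB), 3 of the hippocampus (HC), 2 of the cortex (CX) and 3 of the brainstem (BS). All carried the BAC transgene Aldh1l1-eGFP, in which regulatory DNA of the astrocyte gene Aldh1l1 drives a green fluorescent protein, and eGFP-positive cells were collected by FACS after dissociation of the tissue. The sort therefore rests on the activity of a single promoter, and the labels do not say how many animals went into a sample or whether replicates came from separate animals. The p-values below therefore measure the spread between these samples, which may be technical. In sorted bulk samples of this kind, fewer cells of a type and less RNA per cell cannot be told apart.

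Olfactory sensory neurons have their cell bodies in the epithelium of the nose and send their axons into the glomeruli of the bulb. Each neuron carries a single kind of odorant receptor in its cilia. The receptor acts through the G protein subunit encoded by Gnal, which activates the adenylyl cyclase encoded by Adcy3, and the cyclic AMP made by the enzyme opens a cation channel built from Cnga2, Cnga4 and Cngb1, whose calcium opens the chloride channel encoded by Ano2.

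Values are read counts divided by a size factor for each library, so that 1 read was worth between 0.367 and 2.10, and the limit of 3 reads corresponded to values between 1.10 and 6.31. Reads on genes lay between 2830746 and 14151670 per library with a median of 5552215, and between 4503269 and 9425474 in the OB. Intervals and limits below cover counting error only. Values of 9 astrocyte genes (Aldh1l1, Gfap, Aqp4, Slc1a2, Slc1a3, Gja1, Sox9, Aldoc and Fgfr3) were compared between the OB and the other regions. This comparison does not by itself test the labelled cell type. The summed value of the 9 genes lay between 231957 and 277501 in the OB libraries and between 94622 and 632767 in the others. Slc1a2 weighed most in it, with a mean of 177229 in the OB and 300125 elsewhere. Of the 9 genes, 0 were called higher or lower in the OB by limma, edgeR or DESeq2. Likewise 0 had an unadjusted p under 0.05 in limma.

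Of the 10 genes, 4 were bulb-only (Omp, S100a5, Stoml3 and Gfy), 2 were broad (Gnal and Adcy3), and 4 were neither (Gng13, Ano2, Cnga4 and Cnga2). Just inside the limit was Gfy, with 6 reads in OB replicate 3. Just outside it were Ano2, with 1 read in OB replicate 2, and Gng13, which was over 3 reads in every OB library but also had 7 and 8 reads in HC replicates 1 and 3. Raising or lowering the limit to 5 reads or 1 read left the same 4 genes bulb-only. By the same rule 37 of all 24421 entries were bulb-only, or 0.152%, and 0.291% of the 12730 entries that were over the limit in every OB library. In 6 of the 10 genes every OB value lay above every value of the other regions, against 4.05% of the 18385 genes with a read.

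**Figure D1:**
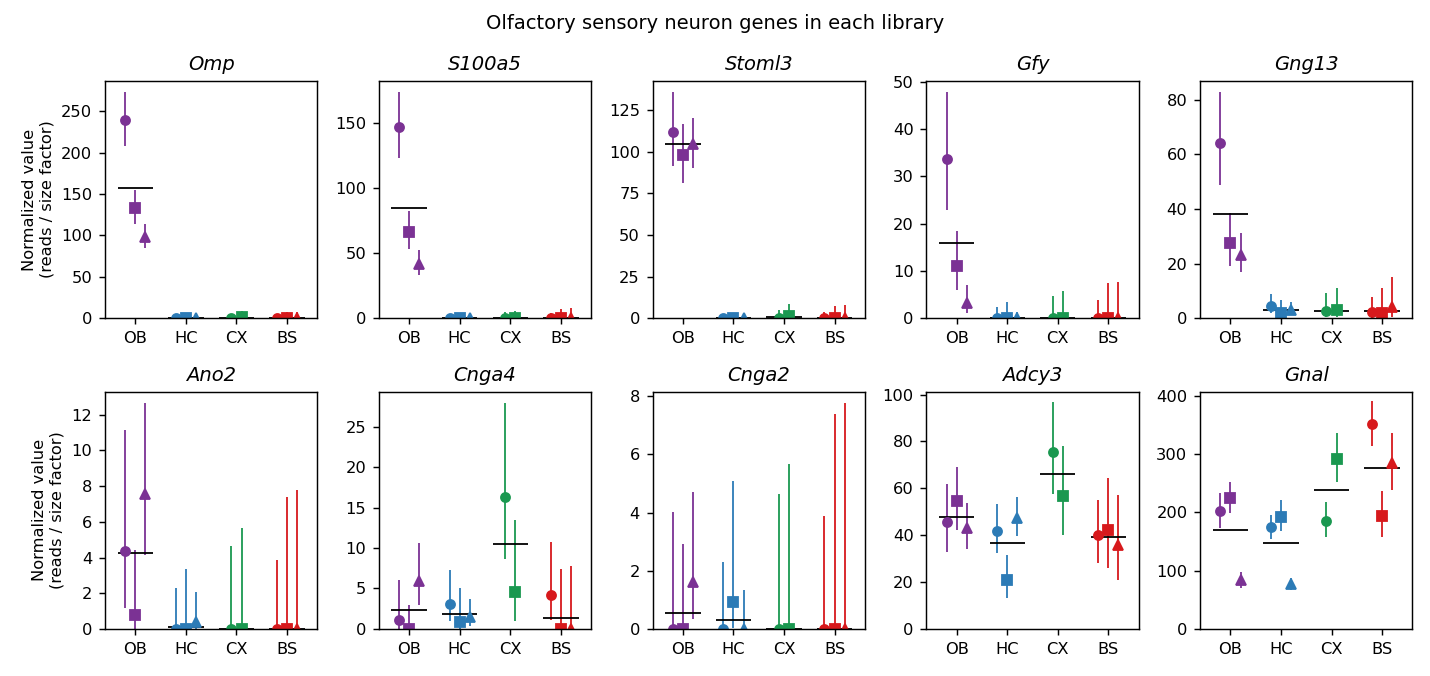
Normalized value (reads divided by the library's size factor, y axis, linear from 0) of the 10 genes in each library, by region on the x axis. Points are libraries (circle, square and triangle for replicates 1, 2 and 3), vertical bars are exact Poisson 95% intervals and horizontal lines are region means. Omp, S100a5, Stoml3 and Gfy lie at or near 0 outside the OB, whereas the OB values of Adcy3 and Gnal lie within the range of the other regions. The CX values of Adcy3 lie above those of every other region, and the HC values of Gnal lie below those of BS.

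Omp encodes the olfactory marker protein, a cytoplasmic protein of mature olfactory sensory neurons and their axons. It had values of 239, 133 and 98.6 in OB replicates 1, 2 and 3, from 220, 168 and 183 reads. Outside the OB it had a single read, in CX replicate 2, and 0 reads in the other 7 libraries. The OB mean was 157 ± 73.2 (SD, n = 3). From 571 reads in the OB and 1 in the other regions the ratio per unit of size factor was 1242, with an exact 95% interval from 222 to 49133. On the log2(value + 1) scale the fitted difference of OB minus the other regions was 7.03 ± 0.62 (SE). The values fell into separate ranges, and the lowest OB library still stood at 98.6 against a highest value of 1.53 elsewhere. Omp is a gene of 1 exon on the minus strand of chromosome 7, chr7:98143359-98145502 (GRCm38), and overlaps Capn5 on the same strand. No exon base is shared between them. Capn5, a calpain protease gene, averaged 81.5 ± 9.09 (SD, n = 3) across OB libraries and 107 ± 26.7 (SD, n = 8) across the others. Whether its reads bear on those of Omp was not tested.

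S100a5 encodes a calcium-binding protein whose expression in olfactory sensory neurons follows their activity. Its values were 147, 66.3 and 42.0 in OB replicates 1, 2 and 3, from 135, 84 and 78 reads, and 0 reads were counted in all 8 other libraries. The OB mean was 85.0 ± 54.7 (SD, n = 3), at least 23.0-fold higher than in the other regions when each of the others was set to its limit of 3 reads. Without OB replicate 1 the mean was 54.2 and the bound 14.7-fold. Among the OB libraries, the highest value was 3.49 times the lowest. As for Omp, replicate 1 was highest and replicate 3 lowest. The gene has 3 exons on the plus strand at chr3:90608523-90611780 (GRCm38).

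Stoml3 encodes a stomatin-like membrane protein found in the cilia of olfactory sensory neurons and known from touch receptors as well. It was the steadiest of the 4 bulb-only genes, with values of 112, 97.9 and 104 in OB replicates 1, 2 and 3 from 103, 124 and 194 reads. Its only other read lay in CX replicate 2, the library that also held the single Omp read. The OB mean was 105 ± 6.98 (SD, n = 3) and the ratio of reads 916, with an interval from 163 to 36248. The highest OB value was 1.14 times the lowest, against 2.42 times for Omp. The gene has 7 exons on the plus strand at chr3:53488653-53508502 (GRCm38).

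Gfy encodes a Golgi protein of olfactory sensory neurons that takes part in placing Adcy3 in the cilia. It was the weakest and most variable of the bulb-only genes, with values of 33.7, 11.1 and 3.23 in OB replicates 1, 2 and 3 from 31, 14 and 6 reads, and with 0 reads in the other 8 libraries. The mean of 16.0 ± 15.8 (SD, n = 3) was at least 4.33-fold higher than the limit of 3 reads elsewhere, and without OB replicate 1 the mean was 7.14 and the bound 1.93-fold. Its spread was as large as its mean, and its highest value was 10.4 times the lowest. The exact Poisson interval of replicate 3 reached from 1.19 to 7.03, below the value of replicate 1. The gene has 5 exons on the minus strand at chr7:45176349-45179569 (GRCm38).

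The 250 bases before the RefSeq start of 3 bulb-only genes are shown because these genes share a pattern over the regions, and because EBF factors, formerly named Olf-1, are known regulators of olfactory sensory neuron genes. Omp had no window at hand and Gnal was left out, so RefSeq (GRCm38.p6) windows of 8 of the 10 genes were used. They were searched for the EBF palindrome (TCCC, any 2 bases, then GGGA) and the homeodomain palindrome TAATTA, which do not overlap each other and read the same on both strands. Capitals mark the EBF match, and lower case the rest. The windows are chr3:53488457-53488706 (plus strand) for Stoml3, chr3:90608272-90608521 (plus strand) for S100a5 and chr7:45179598-45179847 (minus strand) for Gfy, each written 5′ to 3′.
Stoml3: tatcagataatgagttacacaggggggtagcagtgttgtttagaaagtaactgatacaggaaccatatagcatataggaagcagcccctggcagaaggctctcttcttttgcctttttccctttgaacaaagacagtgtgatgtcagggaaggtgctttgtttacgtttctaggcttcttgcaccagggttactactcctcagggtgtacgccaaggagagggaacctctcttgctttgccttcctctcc
S100a5: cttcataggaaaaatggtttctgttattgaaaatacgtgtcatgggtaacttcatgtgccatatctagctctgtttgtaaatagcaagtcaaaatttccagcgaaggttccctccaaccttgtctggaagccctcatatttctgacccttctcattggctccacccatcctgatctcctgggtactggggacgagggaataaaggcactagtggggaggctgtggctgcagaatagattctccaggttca
Gfy: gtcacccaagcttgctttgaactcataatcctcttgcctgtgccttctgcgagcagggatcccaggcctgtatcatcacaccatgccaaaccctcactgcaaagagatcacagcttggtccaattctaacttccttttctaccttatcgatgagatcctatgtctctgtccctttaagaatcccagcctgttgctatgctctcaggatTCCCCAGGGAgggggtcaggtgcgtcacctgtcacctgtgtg
The EBF letters occurred in the Gfy window, from 42 bases before its start, and in no window of the other 7 genes. Of 32851 windows of this length in all, 256 or 0.779% held them. TAATTA was in 0 windows of the 8 genes, against 4.84% of all windows. A match describes the letters in these windows and not a bound site.

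Gng13 encodes the gamma subunit that joins the G protein of the odorant receptors. Its values were 64.1, 27.6 and 23.2 in OB replicates 1, 2 and 3 from 59, 35 and 43 reads. Unlike the bulb-only genes it had reads in every library, with a lowest value of 1.83, a median of 2.72 and a highest of 4.37 in the other 8. The groups did not overlap. The OB mean of 38.3 ± 22.4 (SD, n = 3) was 13.3 times the mean of 2.88 ± 0.975 (SD, n = 8) elsewhere, and the fitted log2 difference was 3.24 ± 0.54 (SE). Without OB replicate 1 the mean was 25.4 and the ratio 8.82. The means of HC, CX and BS were 3.04, 2.79 and 2.77, closer to each other than the replicates within a region. The gene lies at chr17:25717171-25719406 (GRCm38). It shares 397 exon bases with Chtf18 on the opposite strand, and whether strand was used in counting is not given in the sources used here. Chtf18, which encodes a replication factor subunit, had no more than 3 reads in any library.

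Ano2, the calcium-activated chloride channel, was at the edge of detection. It had 4, 1 and 14 reads in OB replicates 1, 2 and 3, giving values of 4.34, 0.789 and 7.54, and a single read in HC replicate 3. The gene spans chr6:125690419-126040126 (GRCm38) with 26 exons. Every OB value lay above every other value, and the ratio of 19 reads to 1 was 41.3 with an interval from 6.57 to 1717. When OB replicate 2 was left out, Ano2 joined the bulb-only genes and their number became 5. Here the deepest OB library had the highest value, whereas it had the lowest of the 3 for Omp.

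The cyclic nucleotide-gated channel subunits Cnga2 and Cnga4 did not share the pattern of Omp. Cnga2, the subunit without which the channel does not open, had 3 reads in OB replicate 3 and 0 in the other OB libraries, plus 1 read in HC replicate 2, so it was at or under the limit of 3 reads in all 11 libraries. In OB replicates 1, 2 and 3 this limit corresponded to values of 3.26, 2.37 and 1.62, far below those of Omp there. Cnga4, a modulatory subunit, had values of 1.09, 0 and 5.93 in OB replicates 1, 2 and 3 from 1, 0 and 11 reads. It was highest in CX replicate 1, at 16.3 from 13 reads. Its OB mean was 2.34 ± 3.15 (SD, n = 3), against 1.83 ± 1.15 (SD, n = 3) in HC, 10.5 ± 8.30 (SD, n = 2) in CX and 1.40 ± 2.43 (SD, n = 3) in BS, and the OB range lay within that of the other regions. Cngb1, the remaining subunit, belongs to the list of further transduction genes and is named here after its values were seen. It had 13 reads in OB replicate 2, 1 in OB replicate 3 and 0 in OB replicate 1, against 3 reads in all other libraries together. Cnga2 lies at chrX:71991849-72010218 and Cnga4 at chr7:105404568-105408742 (GRCm38).

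Gnal and Adcy3, which carry the signal from the receptor to cyclic AMP, were found in every library. Both are also used in other neurons of the brain, Gnal in the striatum among others. Gnal had values of 202, 224 and 83.5 in OB replicates 1, 2 and 3. Elsewhere it ranged from 76.3 to 351 with a median of 194, and the lowest value of all lay in HC replicate 3. The OB mean of 170 ± 75.6 (SD, n = 3) lay between those of HC, at 148 ± 62.6 (SD, n = 3), and CX, at 239 ± 74.5 (SD, n = 2), with BS highest at 277 ± 78.7 (SD, n = 3). The fitted log2 difference of OB minus the other regions was -0.37 ± 0.40 (SE), smaller than its error. Neighbouring regions in this order overlapped in their values.

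Adcy3 had values of 45.6, 54.5 and 43.1 in OB replicates 1, 2 and 3, within the range of 21.0 to 75.4 in the other 8 libraries. The OB mean was 47.7 ± 5.98 (SD, n = 3), against 36.7 ± 13.9 (SD, n = 3) in HC, 66.1 ± 13.2 (SD, n = 2) in CX and 39.3 ± 3.20 (SD, n = 3) in BS. OB minus the other regions was 0.15 ± 0.35 (SE) on the log2 scale. Adcy3, at chr12:4133103-4213525 (GRCm38), shares 1221 exon bases with Cenpo on the opposite strand, a kinetochore gene with OB values of 21.4 ± 9.21 (SD, n = 3) and 14.1 ± 7.11 (SD, n = 8) elsewhere. Gnal shares 852 with Mppe1, which had 4.12 ± 1.18 (SD, n = 3) and 6.94 ± 5.76 (SD, n = 8) in these groups, far below Gnal.

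Differences among HC, CX and BS played no part in choosing the genes and were tested. Of the 10 genes, 7 passed the filter on low values, but Omp, S100a5, Stoml3, Gfy and Gng13 had at most 8 reads in any library of these regions and passed through their OB values, so that Gnal and Adcy3 alone were testable here. Limma, fitted to all 13875 genes, called 0 of these 2 in the test over the 3 regions at an adjusted p under 0.05, where 9.26% of all genes were called. Neither had an unadjusted p under 0.05 in this test, and edgeR and DESeq2 on the recovered reads also called 0. The adjusted p was 0.2741 for Gnal and 0.4088 for Adcy3 (limma). Gnal in HC minus BS was -0.97 ± 0.40 (SE) on the log2 scale, with an unadjusted p of 0.02962 and an adjusted p of 0.238 in limma, where 4.63% of genes were called. Adcy3 in HC minus CX was -0.89 ± 0.45 (SE, adjusted p = 0.4449 in limma, background 1.23%) and in CX minus BS 0.72 ± 0.45 (SE, adjusted p = 0.3586 in limma, background 10.9%). With 2 or 3 libraries in a region, differences of this size were not told apart from the spread between libraries.

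Compared per length, the 10 genes spanned a wide range of levels in the OB. Divided by the exon length in kb, the OB mean was 197 for S100a5, 73.1 for Omp, 58.8 for Stoml3 and 49.5 for Gng13. Gnal followed with 15.2, Adcy3 with 9.49 and Gfy with 8.64. Ano2, Cnga4 and Cnga2 closed the order with 1.08, 0.878 and 0.176. Gnal, whose mean OB value was above that of Omp before division by length, thus lay below 3 of the 4 bulb-only genes per length. The OB libraries of Omp, Stoml3 and Gng13 overlapped in this measure, as did those of Gnal, Adcy3 and Gfy.

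**Figure D2:**
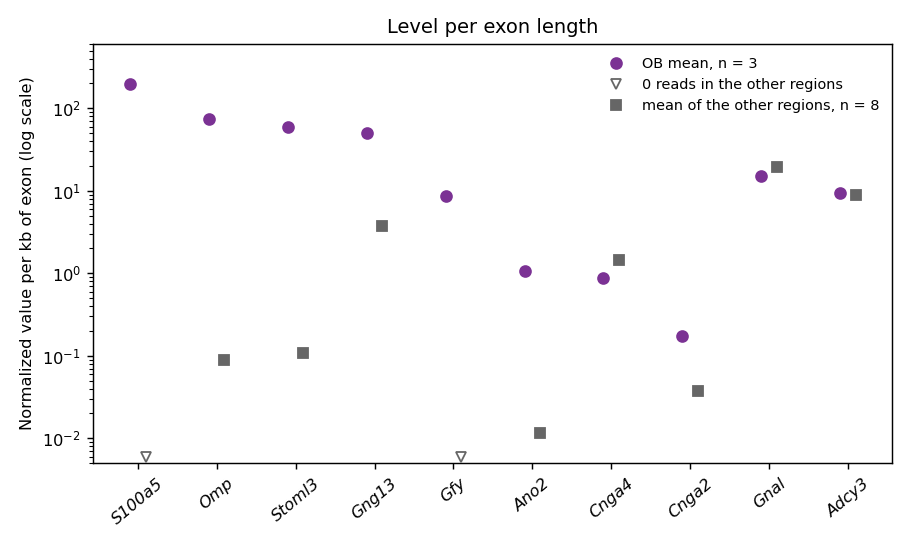
Mean normalized value per kb of exon (y axis, log scale) of the 10 genes in the OB (circles, n = 3) and the other regions (squares, n = 8), with open triangles at the bottom for genes with 0 reads outside the OB. The pairs of points lie far apart for S100a5, Omp, Stoml3, Gfy, Gng13 and, near the limit of detection, Ano2, and close together for Gnal and Adcy3.

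The OB libraries differed in the make-up of the bulb-only transcripts. Replicates 1, 2 and 3 had 489, 390 and 461 reads on the 4 genes together. Omp took a similar share in each, at 45.0%, 43.1% and 39.7%, with exact Clopper-Pearson 95% intervals that overlapped (40.5% to 49.5%, 38.1% to 48.2% and 35.2% to 44.3%). Stoml3 took 21.1% (17.5% to 24.9%) in replicate 1, 31.8% (27.2% to 36.7%) in replicate 2 and 42.1% (37.5% to 46.7%) in replicate 3. The counting intervals of Stoml3 did not overlap. They do not include the spread between samples or amplification, and the Stoml3 value itself varied little (112, 97.9 and 104), while those of Omp, S100a5 and Gfy were lower in replicates 2 and 3. S100a5 went the other way with 27.6%, 21.5% and 16.9%, and Gfy with 6.34%, 3.59% and 1.30%.

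Set against Omp within the same library, Stoml3 had 0.468, 0.738 and 1.06 reads per Omp read in OB replicates 1, 2 and 3. S100a5 had 0.614, 0.5 and 0.426, and Gfy 0.141, 0.0833 and 0.0328. Gng13 stayed closest to Omp, with 0.268, 0.208 and 0.235 reads per Omp read and a highest ratio 1.29 times the lowest, although it was not bulb-only. Over the 3 libraries Omp, S100a5, Stoml3, Gfy and Gng13 were all highest in replicate 1, Stoml3 by little,, whereas Gnal and Adcy3 were highest in replicate 2.

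**Figure D3:**
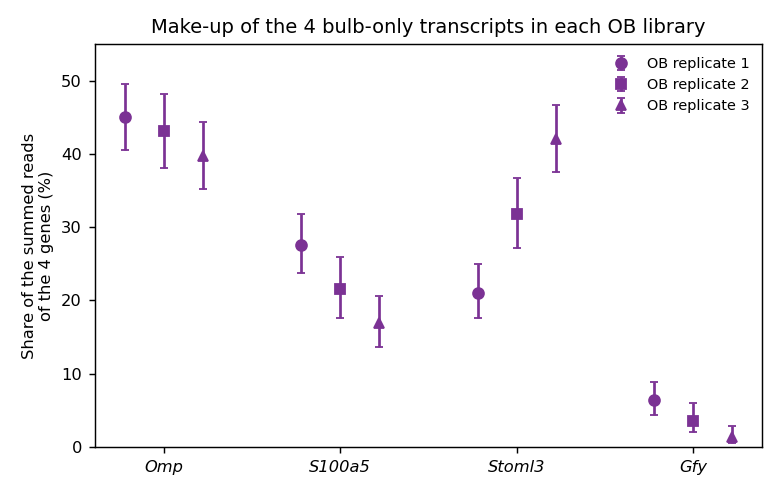
Share of the summed reads of Omp, S100a5, Stoml3 and Gfy taken by each gene (y axis, %) in the 3 OB libraries, with exact Clopper-Pearson 95% intervals as bars. The intervals of Stoml3 are apart between the libraries, from 21.1% in replicate 1 to 42.1% in replicate 3, while those of Omp overlap.

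Among all 37 bulb-only genes, Omp, Stoml3 and S100a5 held ranks 2, 3 and 4 by mean OB value, and Gfy rank 22. The 5 highest were Sp8 at 264, Omp, Stoml3, S100a5 and Ltbp2 at 67.2. Sp8 is a transcription factor of bulb interneurons, and Ltbp2 encodes an extracellular matrix protein. The 4 genes were 10.8% of the bulb-only genes. A single odorant receptor gene, Olfr32, was also among them.

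The genes whose profile over the 11 libraries was most like that of Omp were ranked by the total variation distance between profiles, each library's value taken as a share of the gene's sum (0 for the same profile, 1 for no overlap), over 14681 genes with at least 30 reads. Trdn came first at 0.0245, followed by Glra4 at 0.0550, Clca3a1 at 0.0702, Npy at 0.121 and Col28a1 at 0.123. Dlx1as (0.130), Frmd7 (0.130), 4930549C15Rik (0.136), Ltbp2 (0.138) and Smtnl2 (0.139) completed the 10 nearest genes outside the list. Of these, Npy encodes neuropeptide Y and Trdn the muscle protein triadin, here from 33 reads in the OB. Within the list, S100a5 held rank 3 (0.0685), Stoml3 rank 15 (0.152), Gng13 rank 22 (0.164) and Gfy rank 36 (0.196), whereas Adcy3, Gnal and Cnga4 were at ranks 5831, 10629 and 12288. All distances rest on the same 11 libraries, of which 3 carry nearly all of the Omp signal. The genes of the list were chosen with their OB values known, so their ranks are a description and no support for the list.

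Other genes of olfactory sensory neurons and related chemosensory cells, 43 in 5 lists, did not move together in the OB. Of the 30 that passed the filter, 3 were called higher and 3 lower, against 4.15% of all genes called higher and 3.89% called lower, or 8.04% in both directions. A call needed p under 0.01 in limma, a change of more than 1.5-fold, and values above 5 in 2 or more replicates from the same region. The median log2 difference of the 30 was 0.04, against 0.02 over all genes tested. None of the 43 was bulb-only. By list, transduction and receptor trafficking had 1 of 9 higher and 2 lower, axon adhesion and guidance 2 of 9 higher and 1 lower, transcription factors 0 of 8 either way, and immature neurons 0 of 4. In these last 2 lists 0 genes had an unadjusted p under 0.05, and edgeR and DESeq2 called 0. For Lhx2 and Emx2 the pooled regions differed widely, so the pooled comparison does not show equal levels. Lhx2 had means of 1246 in OB, 1525 in HC, 2143 in CX and 4.07 in BS, and Emx2 64.5, 442, 508 and 0.668. With a mean for each region, Lhx2 was called higher in the OB. Of 6 genes of other chemosensory neurons, such as Trpc2 of the vomeronasal organ, 3 had no read in any library and 5 were at or under 3 reads in all.

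The called genes were expressed in all regions. Robo2, an axon guidance receptor, ranged from 1392 to 1663 in the OB and from 223 to 491 elsewhere, a log2 difference of 2.16 ± 0.23 (SE, adjusted p = 0.0001285, limma). Efna5, an ephrin that guides olfactory and other axons, had 349 to 631 in the OB and 17.2 to 131 elsewhere (3.12 ± 0.53 SE, adjusted p = 0.003549, limma). Neither pair of ranges overlapped. Pde4a, a phosphodiesterase that breaks down cyclic AMP, was higher by 0.69 ± 0.21 (SE, adjusted p = 0.0886, limma), with 204 to 295 in the OB and 115 to 207 elsewhere.

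The genes that were lower included Slc12a2, which loads cells with chloride and so feeds the current through Ano2. Its difference was -1.5 ± 0.38 (SE, adjusted p = 0.03493, limma), with 286 to 404 in the OB and 397 to 1956 elsewhere, ranges that met at their ends. Ncam2, a cell adhesion molecule of olfactory axons, differed by -0.94 ± 0.22 (SE, adjusted p = 0.02732, limma), with 327 to 413 in the OB and 421 to 988 elsewhere. Ric8b, which helps fold the Gnal protein, differed by -0.76 ± 0.23 (SE, adjusted p = 0.08213, limma), and its ranges of 94.7 to 151 and 144 to 288 overlapped. At an adjusted p under 0.05, where 2.57% of genes were called higher, 2.01% lower and 4.58% in all, Pde4a and Ric8b were no longer called in limma or edgeR, whereas DESeq2 still called both (adjusted p of 0.03674 and 0.03738). Ric8b was also lost without OB replicate 1 (-0.71) or 2 (-0.61), and Pde4a without OB replicate 1 (0.77) or 3 (0.52).

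Genes of other cells of the bulb and nose were measured in the same libraries, and their part in the values of the 10 genes was not tested. Of 16 genes of the non-neuronal cells of the olfactory epithelium, 7 had no read and 11 were at or under 3 reads in every library, and 0 of the 2 that could be tested were called by limma, edgeR or DESeq2 or had an unadjusted p under 0.05 in limma. Their summed value was 88.3 to 105 in the OB and 42.9 to 84.2 elsewhere. Trp63 and Cbr2, which had reads in every region, weighed most in it. Trp63 had a mean of 72.2 in the OB and 43.4 elsewhere, and Cbr2 20.3 and 10.1. Of 10 genes of olfactory ensheathing glia, which wrap the axons of the sensory neurons, limma called 8 higher in the OB, against 4.15% of all genes tested. edgeR called 7 and DESeq2 6, counted without regard to direction, and their shares over all genes are not given here. Npy had 607 to 936 in the OB and at most 20.1 elsewhere, Frzb 642 to 767 and at most 27.4, and Foxd3 40.2 to 63.6 and at most 10.5. Mybpc1 had 197 to 306 in the OB, 120 in BS replicate 3 and at most 2.10 in the others, and DESeq2 did not call it (adjusted p = 0.5284). The summed value of the list was 21366 to 28222 in the OB and 6661 to 21877 elsewhere, where its highest values were those of BS.

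Of 15 bulb interneuron genes, 10 of the 14 tested were called higher, among them Sp8 (7.12 ± 0.71 SE, adjusted p = 7.418e-05, limma), Th, Dlx5 and Dlx1, and the list sum was 2594 to 3384 in the OB and 852 to 1518 elsewhere. Over all genes tested, limma called 4.15% higher and 3.89% lower, the background for each list here. DESeq2 did not call Th, the rate-limiting enzyme of dopamine synthesis (adjusted p = 0.3975). Of 8 mitral and tufted neuron genes, 2 of the 6 tested were called, Cdhr1 and Eomes, with a list sum of 453 to 1574 in the OB and 190 to 1166 elsewhere. Cdhr1 had 141, 471 and 125 in OB replicates 1, 2 and 3, highest in a library where Omp was not. Of 6 neuroblast genes 1 of the 5 tested was called, Dcx, a microtubule protein of migrating neurons (3.97 ± 0.47 SE, adjusted p = 0.000282, limma), with a list sum of 528 to 779 in the OB and 153 to 443 elsewhere. Of 10 general neuron genes, limma called 0 higher and 1 lower, the neurofilament gene Nefl (-2.45 ± 0.55 SE, adjusted p = 0.02011, limma). DESeq2 called 3 and edgeR 2, and 3 had an unadjusted p under 0.05 in limma. These further counts disregard direction and their shares over all genes are not given here, so they cannot be set against a background. The sum of the 10 genes was 4482 to 5754 in the OB and 3789 to 6371 elsewhere.

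**Figure D4:**
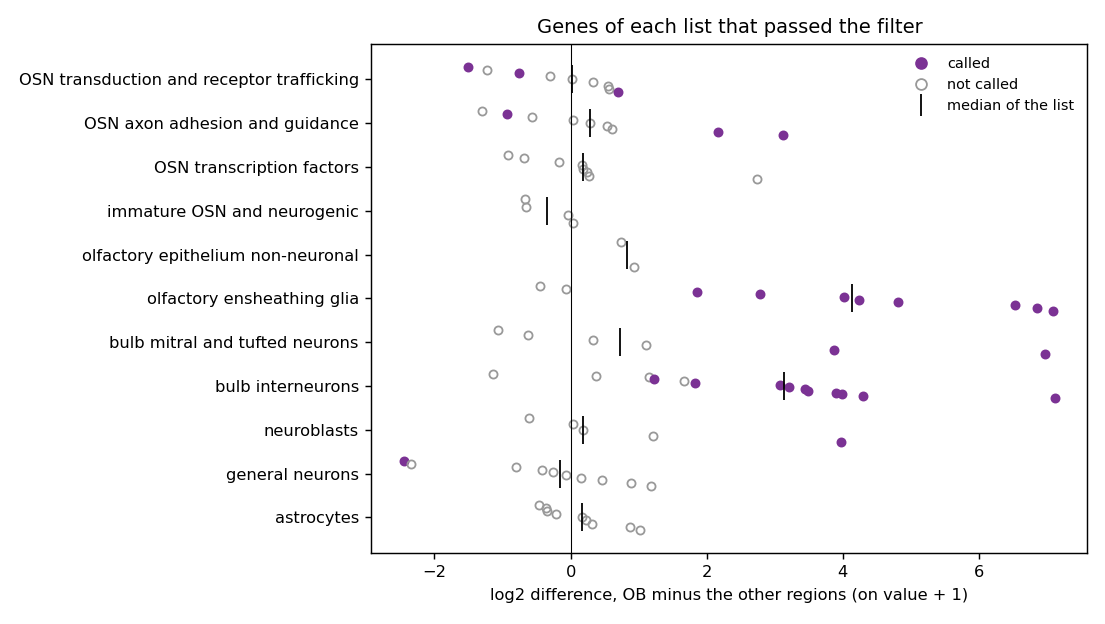
Log2 difference of OB minus the other regions on log2(value + 1) (x axis) for the genes of each list that passed the filter (y axis, 1 point per gene). Filled points were called by p and fold change and black ticks are list medians. The olfactory sensory neuron (OSN) lists centre near 0, with Efna5 and Robo2 to the right, while most genes of olfactory ensheathing glia and bulb interneurons lie to the right.

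Odorant receptor genes gave little signal. Of 1107 genes of the Olfr family, 1001 or 90.4% had no read in any library. The family includes the chromosome 15 genes Olfr286, Olfr287 and Olfr288, which held between 54.6% and 95.1% of all receptor reads in a library and were found in every region. Olfr287 and Olfr288 share 290 and 1774 exon bases with Gm44579 on the same strand, so their reads are uncertain. The family summed to 517 ± 108 (SD, n = 3) per OB library and 358 ± 108 (SD, n = 8) elsewhere, a ratio of 1.44 (two-sided exact permutation p = 0.06061, where 0.01212 is the smallest that 3 against 8 libraries allow). Without the 3 genes the ratio was 1.56 (exact permutation p = 0.2788), and the highest sum lay in HC replicate 1, at 123 against 56.6 to 95.5 in the OB. Scaled by total recovered reads in place of size factors, the family ratio was 1.70 (exact permutation p = 0.03636), so the side of 0.05 on which it fell depended on the scaling. It also fell below 0.05 in the exact permutation test when OB replicate 3 (ratio 1.62), BS replicate 2 (1.54) or BS replicate 3 (1.54) was left out.

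More receptor genes had at least 1 read in the OB libraries, a measure chosen after the values were seen. They numbered 37, 37 and 30 in OB replicates 1, 2 and 3 and between 6 and 24 in the other 8 libraries, with means of 34.7 ± 4.04 (SD, n = 3) and 12.5 ± 5.76 (SD, n = 8) and a ratio of 2.77. The groups did not overlap, and no p is given, since the measure was picked on this difference. Thinned to the lowest depth of 2830746 reads, the expected numbers were 24.6 ± 6.09 (SD, n = 3) and 9.89 ± 3.69 (SD, n = 8), with ranges of 17.7 to 29.4 and 5.65 to 15.2. Over all libraries, 65 receptor genes had reads in the OB only, 25 in other regions only and 16 in both, although the OB libraries held 20009282 reads in all and the others 48469063.

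Olfr32, the bulb-only receptor gene, had 14, 33 and 24 reads in OB replicates 1, 2 and 3, with values of 15.2, 26.1 and 12.9, and 0 reads in the other 8 libraries. It lies at chr2:90136273-90142296 (GRCm38). Its highest value was in replicate 2, whereas the 4 bulb-only genes of the list were highest in replicate 1. Of the receptor genes with reads in the OB, 65 had them in 1 of its libraries, 9 in 2 and 7 in all 3. One found in a single library, named after its values were seen, was Olfr220 with 19 reads in replicate 3 and 0 elsewhere.

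**Figure D5:**
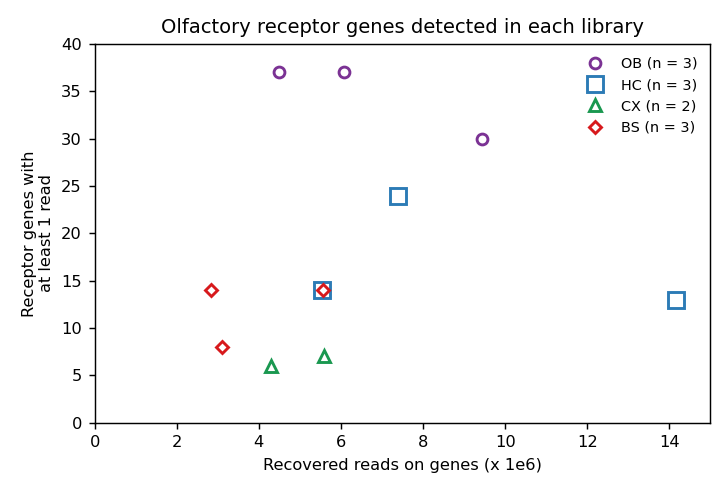
Number of odorant receptor genes with at least 1 read (y axis) against the reads on genes (x axis) for each of the 11 libraries, by region. The 3 OB libraries lie at 30 to 37 genes, above the 6 to 24 of the others, including HC libraries of similar or greater depth.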

How the data were processed

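Per the labels and the methods of the study, the authors extracted total RNA from FACS-sorted cells, depleted rRNA and built libraries with the NuGEN Trio RNA-Seq System, mapped paired reads to mm10 with STAR 2.5.0a after FastQC, assigned them to UCSC transcripts and scaled the counts with DESeq2 1.20.0. Whether strand was used in counting is not given in the sources used here. The deposited unit is a normalized signal, the count divided by a size factor for each library. All values above 0 (100%) came out as whole reads, within 0.02 reads, once divided by each library's smallest step. Depth was 2830746 to 14151670 reads per library.

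Regions follow the sample labels. The tests were planned for raw counts, but the values were normalized, so limma 3.58.1 (R 4.3.3) with a mean-variance trend was fitted to log2(value + 1), two-sided, after filterByExpr by region on recovered reads, which kept 13875 genes. OB was compared with the other regions pooled, and HC, CX and BS with each other in an F test. Log2 differences understate the change of low genes. Calls in the OB comparison followed the thresholds of the study, with p under 0.01 (here limma's, without adjustment), a change of more than 1.5-fold, and values above 5 in 2 or more replicates from the same region (here size-factor values, where the study states RPM), and calls among HC, CX and BS a Benjamini-Hochberg adjusted p under 0.05. Receptor sums were compared by exact permutation. Poisson and Clopper-Pearson intervals are at 95%. The limit of detection was 3 reads. edgeR 4.0.16 and DESeq2 1.42.0 on recovered reads, other scalings, filters and pseudocounts, a replicate block and leaving out each library were alternatives.

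The members and lists were chosen with earlier results of these data known. Genes named are the 10 members, up to 4 called genes of each list by size of change, genes sharing sequence with a member, the 10 nearest to Omp in profile and the 5 highest bulb-only genes. Positions are from GENCODE (GRCm38). Python 3.11.15 with scipy 1.17.1 was used for the rest.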

Additional observations from a re-analysis of the deposited data

How the results depend on the processing

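The 4 bulb-only genes of the list remained so at limits of 1 and 5 reads and when each library was left out, with 4 to 5 genes, the gain being Ano2 without OB replicate 2. Over all genes the number was 37, and 41 to 67 when a library was left out, reaching 67, 66 and 61 without OB replicates 1, 2 and 3 and 57 without HC replicate 1. The summed receptor value, at a ratio of 1.44, passed p of 0.05 in exact permutation tests when scaled by total recovered reads (1.70, p = 0.03636), without OB replicate 3 (1.62, p = 0.04444, the smallest that 2 against 8 allow) and without BS replicate 2 (1.54, p = 0.03333) or BS replicate 3 (1.54, p = 0.03333), with a range of 1.34 to 1.62 when each library was left out. The cause was not tested. Counts of other olfactory genes called lay between 2 and 3 in each direction when libraries were left out, and at 4 higher and 3 lower with a mean for each region, which added Lhx2. Of the alternative values of named list genes, 360 kept their call and 16 lost it, and 0 turned in direction. Dlx5 had no value without OB replicate 1 or 2, and these cases are in neither count. Calls here follow the thresholds of the study on unadjusted p, except in settings that use an adjusted p under 0.05. The adjusted p was less stable. Without any 1 of the OB replicates it was over 0.05 in limma for Slc12a2, Ncam2, Eomes, Th, Dlx1 and Nefl, between 0.0632 and 0.1815. Among HC, CX and BS, Gnal and Adcy3 were called under 0 of 17 alternatives. The adjusted p (limma, edgeR or DESeq2) was 0.168 to 0.651 for Gnal and 0.326 to 0.82 for Adcy3, and Gnal had an unadjusted p under 0.05 in 4 of them, with the replicate block and without OB replicate 3, HC replicate 2 or BS replicate 2. Leaving out a CX sample left 1, whose spread was taken from the other groups.

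Replicate numbers are shared between regions, but nothing in the labels ties them. Same-numbered libraries correlated between -0.16 and 0.25 in their deviations from the region means, with 3 of 15 pairs over 0.1. Differently numbered libraries were much alike, between -0.22 and 0.18, with 5 of 30 pairs over 0.1. Of 11 libraries 7 correlated best with their own number, but these values do not settle whether the numbers mark pairs. With a replicate block, 2 other olfactory genes were called higher and 3 lower, Pde4a being lost (0.69, adjusted p = 0.1307 in limma). Depth limits what can be said of Cnga2, Cnga4 and Ano2, with at most 14 reads in a library, and of Gfy, with 6 reads in OB replicate 3.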
